A study of Homo sapiens with 2 samples.

Results

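The miR-106b~25 cluster is a group of 3 microRNA hairpins that lie in an intron of MCM7, and each hairpin can release a product from both of its arms. Its members were taken by probe name from the deposited value table, with the array's own prefix and probe number removed, as hsa-miR-106b, hsa-miR-106b*, hsa-miR-93, hsa-miR-93*, hsa-miR-25 and hsa-miR-25*, 6 of 718 probe names in all. The star marks the arm opposite the one that usually enters the silencing complex, which is called the guide here. The series holds 2 arrays of RNA from HepG2, an established human hepatocellular carcinoma line. The TCDD array held cells given TCDD (tetrachlorodibenzo-p-dioxin), an environmental toxicant and ligand of the aryl hydrocarbon receptor, at 10 nM for 48 h. The control array held cells of the same line labelled as control, and its labels give no time. With 1 array per group no difference below has a replicate check, no test was possible, and every direction rests on the labels.

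MicroRNAs are short RNAs that guide Argonaute proteins to messenger RNAs, mainly through the seed, bases 2 to 8 from the 5′ end. MCM7, the host gene, encodes a subunit of the helicase that opens DNA for replication, and its transcription is activated by E2F factors as cells enter the cell cycle. miR-106b and miR-93 are known to repress CDKN1A (p21), an inhibitor of the cell cycle, and miR-25 is known to repress BCL2L11 (Bim), which promotes apoptosis. The cluster is widely described as raised in hepatocellular carcinoma.

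In RefSeq's GRCh38.p14 annotation the hairpins run along chromosome 7 on the minus strand, all within MCM7 (chr7:100092728-100101397). MIR106B lies at chr7:100093993-100094074, MIR93 at chr7:100093768-100093847 and MIR25 at chr7:100093560-100093643, a span of 515 bases with gaps of 145 and 124 bases between neighbours. All 6 probe names were matched to a mature RefSeq sequence by name, and the sequences of the probes themselves were not available. The RefSeq sequences are shown with the seed in capitals because the seed divides the guides into families.

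miR-106b (5′ arm): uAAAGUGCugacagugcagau
miR-93 (5′ arm): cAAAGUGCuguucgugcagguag
miR-25 (3′ arm): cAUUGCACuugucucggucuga
miR-106b* (3′ arm): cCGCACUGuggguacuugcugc
miR-93* (3′ arm): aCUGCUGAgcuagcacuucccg
miR-25* (5′ arm): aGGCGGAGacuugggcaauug

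miR-106b and miR-93 share the seed AAAGUGC and had 16 equal bases of 21 compared without gaps. miR-25 carries another seed, AUUGCAC, and each star arm has a seed of its own. The guide of the miR-25 hairpin comes from the 3′ arm, unlike the guides of the other hairpins. GC content was 42.9% in miR-106b, 52.2% in miR-93, with miR-25 between them, and it was higher in each star arm, at 63.6% in miR-106b*, 59.1% in miR-93* and 57.1% in miR-25*.

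All 6 members read a little higher on the TCDD array than on the control array, by 1.09-fold to 1.31-fold, and none approached 2-fold. Their log2 differences (TCDD minus control) ran from 0.12 to 0.39 with a median of 0.25, against a median of -0.003 over all 242 probe names above the floor on at least 1 array. The floor was a fluorescence of 100 (6.64 on the log2 scale), 2 times the smallest deposited value, and every member lay above it on both arrays. Of the members, 0 were at least 2-fold higher (0.413% of the 242) and 0 at least 2-fold lower (2.48%), and 0 passed 1.5-fold higher (3.31%) or lower (4.13%). A difference above 0 was found for 6 of 6 members and for 49.6% of the 242, but the members are products of a shared transcript and the scaling between arrays can shift that balance. The 6 differences stayed above 0 under each of the 7 other settings run, though miR-93 was at 0.01 and miR-25 at 0.02 once a scaling curve fitted to the deposited values was inverted, a step that also moved the median of all detected probes to -0.07. Omitting the floor or making it stricter left all 6 unchanged, and adding it to both arrays cannot turn a sign. Median centring moved all 6 by the same amount. The settings of the floor are thus no check of direction.

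miR-106b, the guide of the first hairpin in the direction of transcription, had a log2 fluorescence of 13.53 on the TCDD array and 13.19 on the control array. On the linear scale it had 11817 units on the TCDD array and 9322 units on the control array, a 1.27-fold difference (0.34 on the log2 scale). As deposited the difference exceeded the spread between single probes, a robust SD of 0.28 over the 222 names above the floor on both arrays, and 12.4% of the detected names had a larger one. It was under that spread at 0.18 after quantile normalization, 0.24 with the level trend removed and 0.22 with the fitted scaling curve inverted. The spread is that of the deposited differences, and the spread under each of these settings is not given here.

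miR-106b*, the opposite arm, was at 10.87 (1876 units) on the TCDD array and 10.61 (1568 units) on the control array. It was 1.20-fold higher, a log2 difference of 0.26. Guide and star of this hairpin thus differed by a similar amount, the guide by 0.08 more.

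miR-93, which shares the seed of miR-106b, was at 13.10 (8762 units) on the TCDD array and 12.96 (7968 units) on the control array. Its difference of 0.14 (1.10-fold) lay within the spread between probes, and 28.9% of the detected names had a larger one. miR-93* was at 10.07 (1072 units) on the TCDD array and 9.68 (820 units) on the control array. That star arm had the highest difference of the 6, 0.39 (1.31-fold), which 10.3% of the detected names exceeded.

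miR-25 was at 9.81 (900 units) on the TCDD array and 9.69 (827 units) on the control array. Its difference, 0.12 (1.09-fold), was the smallest of the 6, and 31.8% of the detected names had a larger one. miR-25* was at 9.47 (707 units) on the TCDD array and 9.22 (596 units) on the control array, a difference of 0.25 (1.19-fold).

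**Figure D1:**
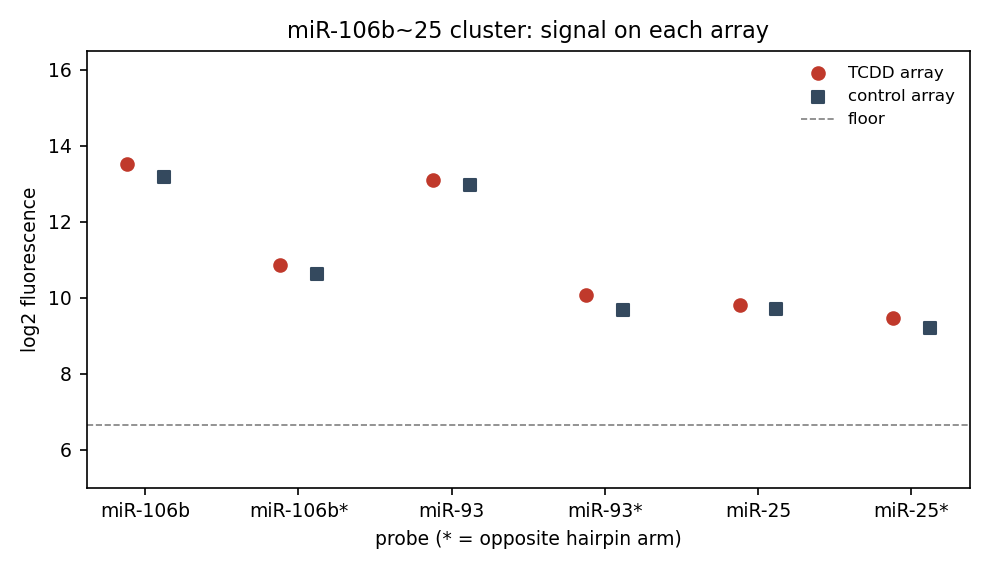
Log2 fluorescence (y axis) of the 6 cluster probes on the TCDD array (red circles) and the control array (dark squares), with the floor at 6.64 as a dashed line and no error bars because each group has 1 array. Every probe lies above the floor on both arrays and reads slightly higher on the TCDD array, and heights of different probes cannot be compared.

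The deposited differences moved with signal level, so each member was also set beside the 50 other probes closest to it in mean level. The 50 spanned mean log2 levels of 11.55 to 14.99 for miR-106b, 11.28 to 14.70 for miR-93 and 8.56 to 10.13 for miR-25*. Brightness was thus matched only loosely, above all for the bright guides. Cluster members could be neighbours of each other. The median difference of these neighbours was 0.07 for miR-106b and for miR-93, 0.02 for miR-106b*, -0.02 for miR-25, -0.06 for miR-93* and -0.08 for miR-25*. All members lay above the median of their neighbours, by 0.06 for miR-93, 0.14 for miR-25, 0.24 for miR-106b*, 0.27 for miR-106b, 0.33 for miR-25* and 0.45 for miR-93*. Of the 50 neighbours, 2 had a larger difference than miR-93*, 6 than miR-25*, 9 than miR-106b and miR-106b*, 18 than miR-25 and 20 than miR-93. Relative to these neighbours, then, miR-93* and miR-25* stood furthest out and the guides miR-93 and miR-25 lay nearer the middle.

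**Figure D2:**
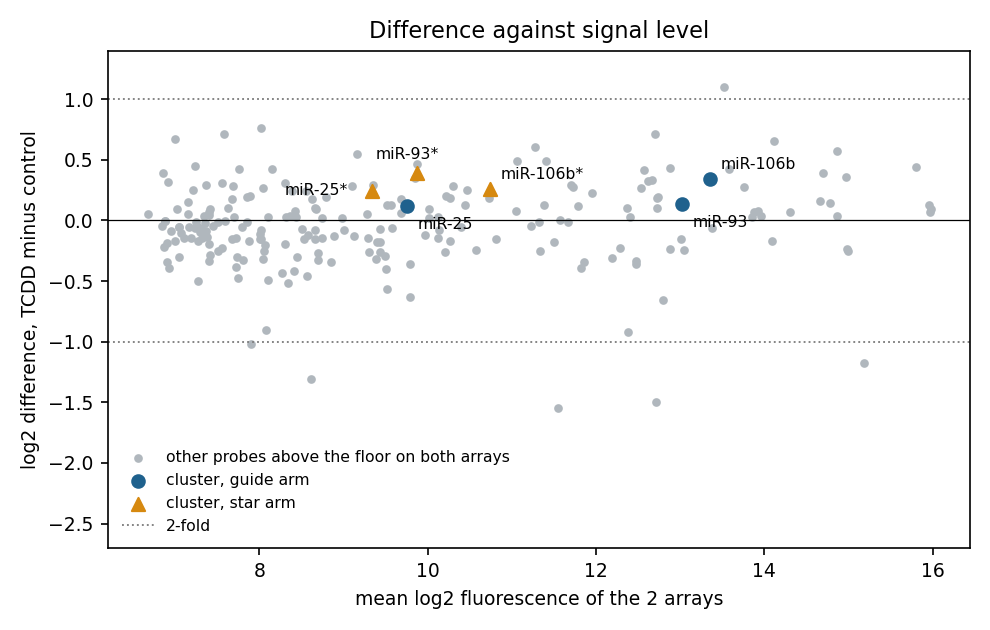
Log2 difference, TCDD minus control (y axis), against the mean log2 fluorescence of the 2 arrays (x axis), for probes above the floor on both arrays in grey, with the cluster's guide arms as blue circles and its star arms as orange triangles. The cluster lies between 0.12 and 0.39, inside the cloud of other probes and far from the dotted 2-fold lines.

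**Figure D3:**
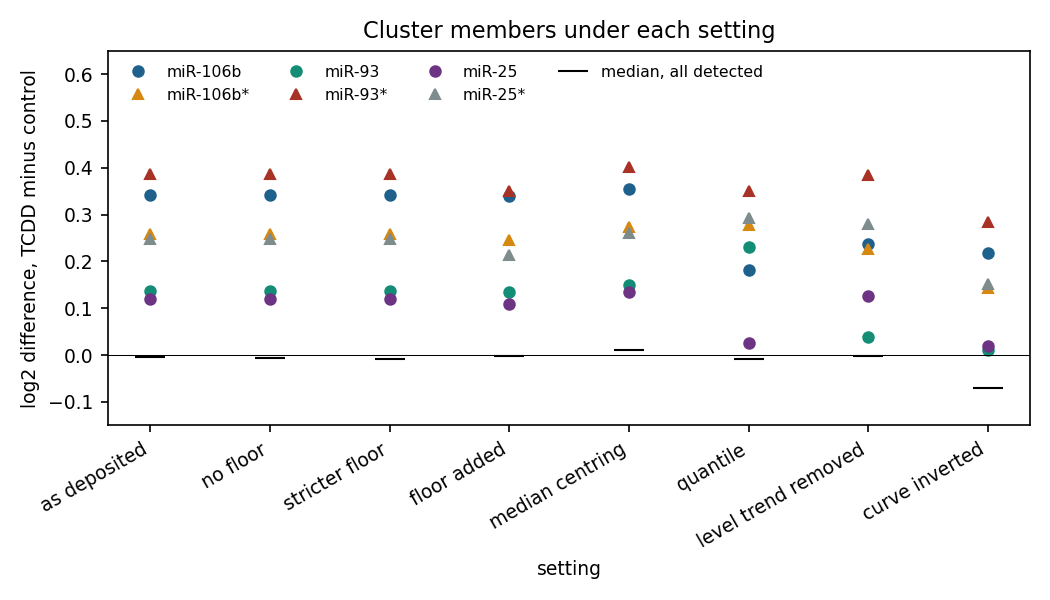
Log2 difference, TCDD minus control (y axis), of the 6 members under the deposited values and 7 other settings (x axis), with circles for guide arms, triangles for star arms and a black dash for the median of all detected probes. All members stay above 0 and under 0.41, and inverting the fitted scaling curve brings miR-93 and miR-25 to 0.01 and 0.02.

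The median difference was 0.26 over the 3 star arms (0.25 to 0.39) and 0.14 over the 3 guide arms (0.12 to 0.34), and the ranges overlapped. The guide minus star gap was 0.08 for the miR-106b hairpin, -0.25 for miR-93 and -0.13 for miR-25. Gaps of this size were common on this pair of arrays. Over 27 other hairpins with both arms above the floor on both arrays, the absolute gap had a median of 0.21, from 0.04 for miR-221 to 1.08 for miR-191. The star probes of both these hairpins lay near the floor of 6.64. miR-221* was at 6.88 on both arrays, and miR-191* was at 7.25 on the TCDD array and 7.35 on the control array. The cluster's star probes all read 9.22 or more. The miR-106b, miR-25 and miR-93 hairpins stood 6th, 10th and 19th of 30 in order of absolute gap. The guide's difference was below the star's in 14 of the 27, with a median guide minus star gap of -0.05. The arms had differences of the same sign in all 3 cluster hairpins and in 14 of the 27 others. In the cluster they were all above 0. In the others both were above 0 in 4 hairpins, among them miR-17 and miR-18a of the paralogous miR-17~92 cluster, and both below 0 in 10. Each other hairpin whose arms differed in sign had an arm below 9.22 on both arrays, dimmer than any arm of the cluster. The others with both arms at 9.22 or more were miR-425, miR-27b, miR-222, miR-34a, miR-17 and miR-21. In all of these the arms had the same sign, so a shared sign was not particular to the cluster among bright hairpins. miR-92a was not among the 27, because its star probes carry a hairpin number in their names. Its difference was -0.31, against 0.76 for miR-92a-1* and -0.15 for miR-92a-2*. The sign of the miR-106b gap depended on the scaling, at -0.10 after quantile normalization, while the star arm was ahead in miR-93 and miR-25 under each of the 8 settings. Omitting the floor, a stricter floor and median centring left every cluster gap exactly as deposited, so those settings are no check of the gaps.

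**Figure D4:**
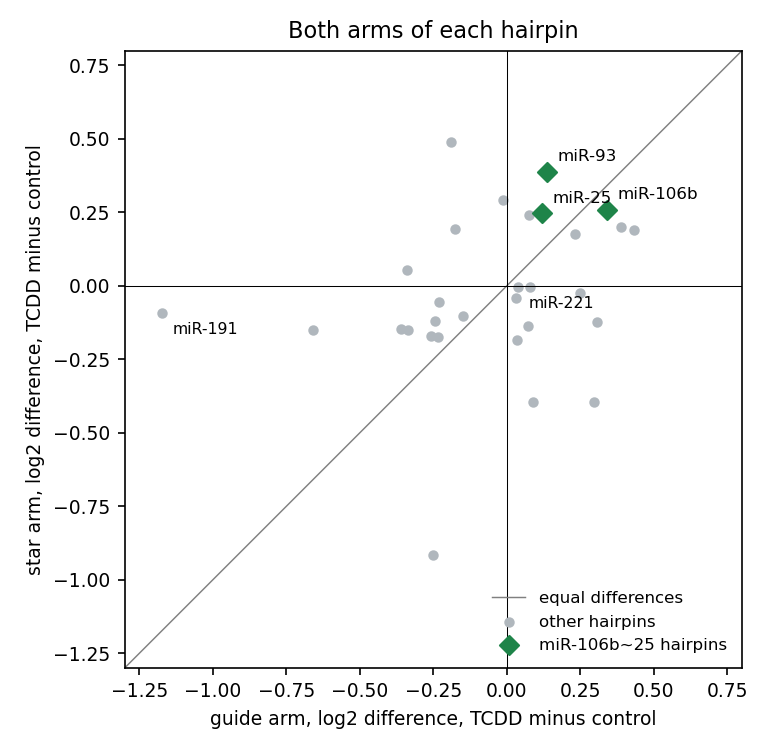
Log2 difference, TCDD minus control, of the star arm (y axis) against that of the guide arm (x axis) for 30 hairpins, with the 3 cluster hairpins as green diamonds and the line of equal differences in grey. The cluster hairpins lie together at the upper right, miR-106b near the line and miR-93 and miR-25 above it.

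The guides were then set beside other listed miRNAs with their seeds. Most of these come from the paralogous clusters miR-17~92 on chromosome 13 and the miR-106a cluster on chromosome X. Members of the AAAGUGC family are printed to show how close their probes' targets are.

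miR-17-5p: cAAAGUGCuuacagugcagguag
miR-20a: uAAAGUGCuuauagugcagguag
miR-20b: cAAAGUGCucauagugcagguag
miR-106a: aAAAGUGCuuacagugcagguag

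All 6 names listed here for the AAAGUGC seed were detected. Their differences were above 0 as deposited and under the 7 other settings, with a deposited median of 0.31. Omitting the floor or making it stricter changed none of these differences, and adding it to both arrays cannot turn a sign. The list was set by name and may not hold every miRNA with this seed. miR-17-5p was at 13.09 on the TCDD array and 12.66 on the control array, a difference of 0.43. miR-106a was at 13.79 on the TCDD array and 13.37 on the control array, also a difference of 0.43. miR-20b had 7.83 on the TCDD array and 7.55 on the control array (0.28), and miR-20a had 11.87 on the TCDD array and 11.59 on the control array (0.28). miR-106b stood next after miR-17-5p and miR-106a in this order and miR-93 last, and all gaps between neighbours were under the spread between probes. The closest pair was miR-17-5p and miR-106a, which differed at 1 of 23 bases. miR-106b differed from miR-17-5p, miR-20a and miR-106a at 3 of 21 bases each, and miR-93 differed from miR-20b at 3 of 23. Signals of all these probes may therefore not be independent of each other, and cross-hybridisation was not tested.

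In the AUUGCAC family only miR-25 and miR-92a were detected, and they differed in direction. miR-92a, from miR-17~92 and its X-linked paralog, was at 12.03 on the TCDD array and 12.34 on the control array, a difference of -0.31, which was -0.02 after quantile normalization. It shares 18 of 22 bases with miR-25, whose difference was 0.12. miR-92b lay just under the floor at 6.63 on both arrays, and miR-32, miR-363 and miR-367 were further below it.

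**Figure D5:**
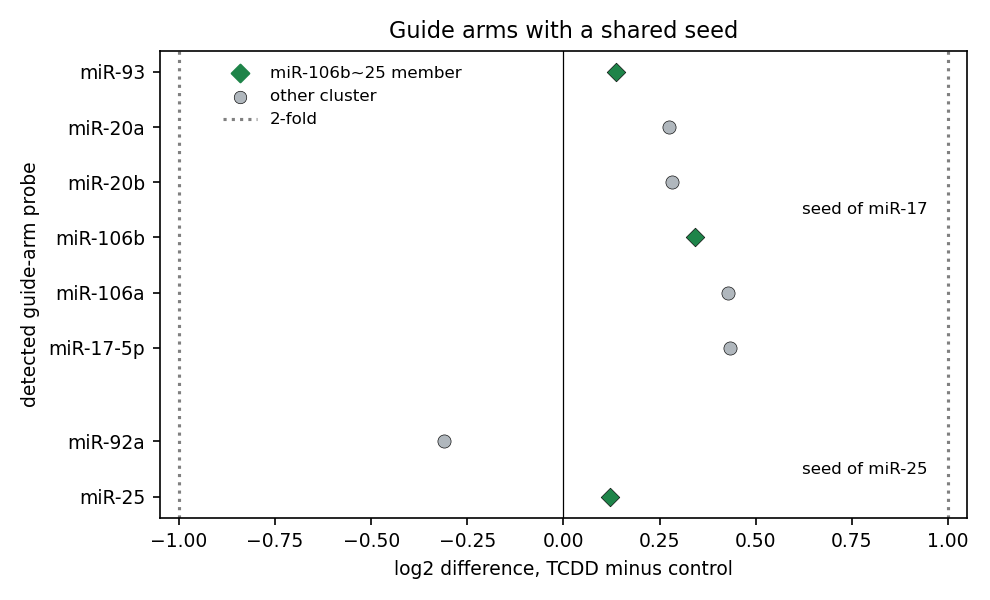
Log2 difference, TCDD minus control (x axis), of the listed and detected guide arms that share the seed of miR-17 (upper group) or of miR-25 (lower group). Cluster members are green diamonds and members of other clusters grey circles. All 6 points of the upper group lie between 0.14 and 0.43, and in the lower group miR-92a lies at -0.31 and miR-25 at 0.12.

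The miR-17~92 list had 9 of 12 names detected. Of these, miR-19b-1* passed the floor on the TCDD array alone, which fixed its sign, and of the 8 above the floor on both arrays 7 had a difference above 0, with a median of 0.25. Its other guides were miR-19b at 0.60 (11.58 on the TCDD array, 10.98 on the control array) and miR-18a at 0.23 (12.07 on the TCDD array, 11.84 on the control array). Among its star arms miR-92a-1* had the highest difference, 0.76, with 8.40 on the TCDD array and 7.64 on the control array. miR-17* was at 0.19 and miR-18a* at 0.18, and miR-19b-1*, at 7.03 on the TCDD array, was below the floor on the control array (5.95) and so at least 1.31-fold higher on the TCDD array. Of the X-linked miR-106a cluster 5 of 10 names were detected, 4 of them with differences above 0, with a median of 0.25. Beside miR-106a and miR-20b these were miR-18b at 0.25, miR-363* at 0.16 (-0.06 after quantile normalization) and miR-92a-2* at -0.15. The miR-106b~25 median of 0.25 thus lay close to those of both paralogous clusters, and with the floor applied none of the 3 held a member that was 2-fold apart. For these medians miR-19b and miR-92a were counted in the miR-17~92 list alone. Each also has a hairpin in the X-linked cluster.

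A small positive difference was common. The human miRNAs outside the cluster closest to the guides' median of 0.14 were miR-320 (0.14), miR-324-3p (0.13), miR-15b (0.13), miR-197 (0.13) and miR-200c (0.13), each within 0.01 over the 2 arrays, and 22 of 197 candidates lay within 0.05 of it.

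The arrays did not measure MCM7 itself. Because the members are made from its transcript, the window around its most upstream RefSeq start is shown, from 250 bases before it to 50 after, at chr7:100101348-100101647 on the minus strand of GRCh38.p14. Capitals mark GCGTG, the core letters of the aryl hydrocarbon receptor's response element, or CACGC, the same letters on the other strand.

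MCM7 promoter: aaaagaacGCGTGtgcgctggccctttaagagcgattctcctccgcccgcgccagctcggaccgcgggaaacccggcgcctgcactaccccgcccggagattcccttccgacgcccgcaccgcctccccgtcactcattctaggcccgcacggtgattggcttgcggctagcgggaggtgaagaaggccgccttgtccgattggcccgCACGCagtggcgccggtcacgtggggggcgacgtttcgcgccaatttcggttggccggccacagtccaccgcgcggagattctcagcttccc

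This window held 2 matches, which do not overlap. The windows at the other two MCM7 starts held 0 and 1. Of 35116 promoter windows of 300 bases, 36.5% held at least 1 match and 12.7% at least 2, so the letters are common, and a match is not evidence of binding.

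The label of the cells was checked against liver miRNAs. miR-192 was at 13.96 on the TCDD array and 13.88 on the control array, and miR-194 was at 13.06 on the TCDD array and 12.34 on the control array. The hepatocyte miRNA miR-122a was near the floor, at 7.59 on the TCDD array and 7.60 on the control array, and miR-148a was under it on both. None of 5 blood or 4 muscle miRNAs lay above the floor on either array.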

How the data were processed

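Dye was attached to total RNA by ligation of an RNA linker, per the labels' protocols, and Cy3 is given for both arrays; per the series' design text the second channel held unrelated samples and was not compared. The deposited table holds log2 fluorescence per probe. The smallest value, 5.64 (50 units), was shared by 257 names on the TCDD array and 343 on the control array, which marks it as the authors' lower limit. How background was corrected and arrays were scaled is not given in the sources used here. Above the smallest, the deposited log2 values followed whole steps of fluorescence distorted by a second-degree curve, which was fitted here and is no step any source states: 95.2% of 461 values on the TCDD array and 97.6% of 375 on the control array fell within 0.05 units of it. At a signal of 10000 the curve's factor was 1.05 on the TCDD array and 0.959 on the control array.

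Of 719 probes, those of 1 name were averaged. The floor was exceeded by 237 of 718 names on the TCDD array and by 227 on the control array. The highest log2 value was 16.02 on the TCDD array and 15.93 on the control array, above every member. The number of arrays limits the precision, and nothing in the labels says whether cultures were separate. Values under the floor were set to it before differences were taken. The guide and star pairs are probes whose names differ by the star alone, plus miR-17-5p with miR-17*, the older name of miR-17-3p, a match made after the data were seen. Named are the 6 members, detected members of the seed families and paralogous clusters, the 5 names closest to the guides' median and the hairpins with the smallest and largest gap. The members, lists and settings were chosen with earlier results of these data known. Procedures were tested on simulated data with changes far larger than the members' differences, so recovery of differences this small was not tested. The tools were matplotlib 3.10.9, statsmodels 0.14.6, pandas 2.3.3, numpy 2.4.6 and scipy 1.17.1 under Python 3.11.15. Sequences and positions are RefSeq's (GRCh38.p14).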

Additional observations from a re-analysis of the deposited data

How the results depend on the processing

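The settings were quantile normalization, median centring, inversion of the fitted scaling curve, subtraction of a lowess trend on level (fraction 0.5), omission of the floor, a stricter floor at percentile 75 and addition of the floor before log2. The 99 recomputed differences of members, guide minus star gaps and list medians moved by at most 0.18, but most of them are themselves near or under the spread between probes, 0.28, and the floors barely touch probes this bright. Among the other listed miRNAs, miR-92a moved by 0.29 under quantile normalization, and miR-19b-1* was at 1.08 with no floor and below the stricter floor on both arrays. Over the settings miR-106b lay between 0.18 and 0.36, miR-106b* between 0.14 and 0.28, miR-93 between 0.01 and 0.23, miR-93* between 0.28 and 0.40, miR-25 between 0.02 and 0.13 and miR-25* between 0.15 and 0.29. The cluster median was 0.15 with the curve inverted, and 0.23 to 0.27 otherwise. At 1.5-fold and at 3-fold no member was called. The AUUGCAC family's median was -0.10 as deposited and -0.21 with the curve inverted. With miR-19b-1* counted the miR-17~92 median over both arms was 0.28, and 0.33 if miR-17* was left out (chosen after the data were seen). No paired analysis was possible because TCDD and control had 1 array each, and leaving out a replicate was not possible either.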

Other observations

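In the X-linked paralogous cluster the star probe miR-363* was bright, at 14.75 on the TCDD array and 14.58 on the control array, while the guide probe miR-363 had the smallest deposited value on both. Levels of different probes cannot be compared directly, and the values are given without explanation.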
